A study of Mus musculus with 20 samples.

Results

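The left-right difference of the mouse heart was compared between its atria and its ventricles, as the left atrium (LA) minus the right atrium (RA) against the left ventricle (LV) minus the right ventricle (RV). The groups were LA (4 arrays), RA (4 arrays), LV (3 arrays) and RV (4 arrays), taken by the source label of each sample, which made 15 of the 20 arrays of the series. All were from untreated male C57/BL6 mice of 5 to 10 weeks, and total RNA was hybridised to Illumina Mouse Ref-8 v2 bead arrays. The labels name no mutation, transgene or agent other than anaesthesia and heparin before the hearts were perfused and dissected. The LA pieces lay next to the pulmonary vein, the RV pieces came from the free wall, and every LV mass was cut in 3, and the labels do not say whether arrays of 1 region came from separate animals. The p-values therefore cover the spread among the arrays of a region, which may be technical. The fourth LV array and the 4 arrays of the sinoatrial node were not part of the comparison. The study's methods count fewer LV arrays in use than the labels hold, without saying which, so that the LV arrays compared here may not be those of the study.

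Left and right sides of the heart are set apart in the embryo, where signalling by Nodal on the left side sets the identity of the left atrium, while the right atrium takes up the sinus venosus and keeps the pacemaker tissue beside it. The ventricles are thought to differ for another reason, since the left one arises mainly from the early heart tube and the right one mainly from later added progenitors. After birth, the left ventricle pumps against systemic pressure and the right ventricle against the lower pressure of the lungs.

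Deposited values were z-scores, in which every array has a mean of 0 and an SD of 1 over its probes, so that levels are distances from the array mean in SD and differences are in the same unit, with no true zero and no folds. LV replicate 4, which was left out, had Spearman correlations of -0.06 to 0.01 with the 15 arrays over all probes, and of 0.306 to 0.323 over the tested genes. LV replicate 3 also stood apart: over the tested genes its mean correlation with the other regions was 0.881, where the other 14 arrays had 0.91 or more, and 145 of 7374 tested genes lay below every value of the other 14 arrays in it. The chamber labels were checked with *Myl7*, *Myl4* and *Sln*, which mark atrial muscle, and *Myl2*, the ventricular myosin light chain. *Myl2* was 0.06 to 2.20 in atria and 4.34 to 5.15 in ventricles, with no overlap, and RV replicate 2, whose title names an atrium while its other labels name the right ventricle, had 4.34. *Myl7* was 3.68, 4.48, 4.30 and 4.35 in LA, 4.41, 4.07, 4.10 and 4.14 in RA, 1.91, 0.03 and -0.40 in LV and -0.01, 1.76, 1.34 and -0.19 in RV. It was therefore high in LV replicate 1 and in RV replicates 2 and 3, each still below every atrial array, and *Myl4* and *Sln* were highest in the same 3 ventricular arrays.

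**Figure D1:**
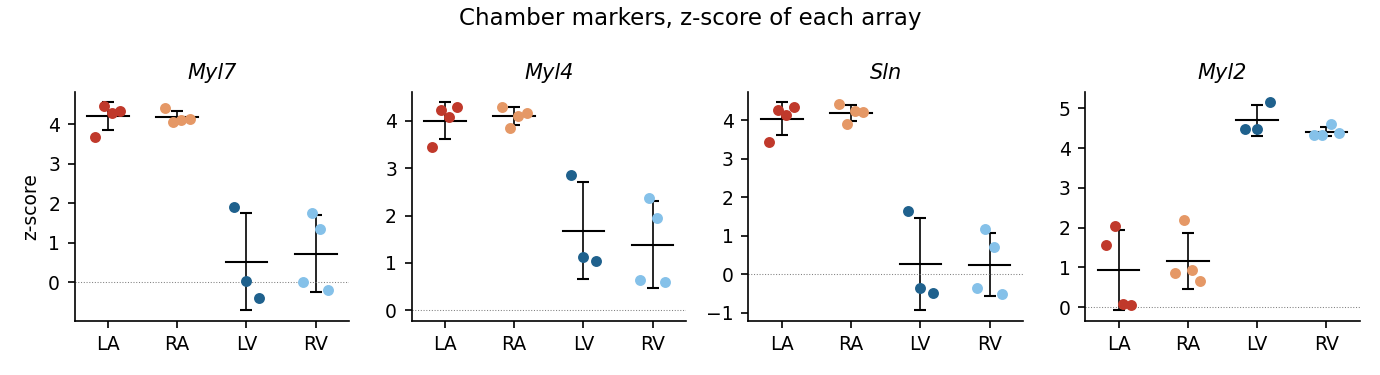
Z-scores (vertical axis, SD from the array mean) of the atrial markers *Myl7*, *Myl4* and *Sln* and the ventricular marker *Myl2* in each array of LA, RA, LV and RV. Points are arrays, long bars are means and error bars are SD (n = 4, LV n = 3); LV replicate 1 and RV replicates 2 and 3 carry the atrial markers above the other ventricular arrays.

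Upstream sequences are given first for 3 genes with large left-right differences, *Bmp10* and *Hamp* on the right side of the atria and *Nppb* on the left side of the ventricles. *Cd207*, whose atrial difference was larger, is not among them. They are RefSeq windows of 300 bases on GRCm38.p6, from 250 bases before to 50 after the annotated start, written in the direction of the gene. The windows lie at chr6:87428744-87429043 on the plus strand for *Bmp10*, at chr7:30943980-30944279 on the minus strand for *Hamp*, and at chr4:147985650-147985949 on the plus strand for *Nppb*. Capitals mark exact matches, on either strand, to AGATAA, letters that factors of the GATA family bind, to GGTGTG, a core of T-box factors, to CATTCC, a core of TEAD factors, or to TATAAA, which stands for the TATA box.
Bmp10: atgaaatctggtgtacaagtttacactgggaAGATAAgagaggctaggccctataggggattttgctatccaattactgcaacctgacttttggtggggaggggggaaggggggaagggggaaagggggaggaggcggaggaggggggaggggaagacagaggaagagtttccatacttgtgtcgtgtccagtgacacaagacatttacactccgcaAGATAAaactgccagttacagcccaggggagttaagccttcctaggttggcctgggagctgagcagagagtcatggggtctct
Hamp: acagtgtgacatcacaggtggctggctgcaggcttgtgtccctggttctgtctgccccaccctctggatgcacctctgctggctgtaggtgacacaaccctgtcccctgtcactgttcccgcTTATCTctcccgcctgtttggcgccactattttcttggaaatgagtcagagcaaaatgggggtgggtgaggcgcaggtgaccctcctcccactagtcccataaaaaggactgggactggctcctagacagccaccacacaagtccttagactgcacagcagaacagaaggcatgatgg
Nppb: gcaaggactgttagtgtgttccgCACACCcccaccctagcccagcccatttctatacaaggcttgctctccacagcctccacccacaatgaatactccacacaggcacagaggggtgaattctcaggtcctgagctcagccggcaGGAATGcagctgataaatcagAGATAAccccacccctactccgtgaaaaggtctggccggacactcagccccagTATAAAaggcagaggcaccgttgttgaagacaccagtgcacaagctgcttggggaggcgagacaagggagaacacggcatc

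The *Bmp10* window held AGATAA at 2 places, at -219 and -33 from the start, and *Hamp* held it once, at -128 on the opposite strand. *Nppb* held each motif once, with GGTGTG at -227 and CATTCC at -105 on the opposite strand, AGATAA at -84 and TATAAA at -31. Over all 32851 windows of this length outside chromosome 18, 11.2% held AGATAA, 19.1% GGTGTG, 14.7% CATTCC and 13.6% TATAAA. No match to the motifs overlapped another, and a match describes letters only.

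More genes were called between the atria than between the ventricles in the same fit, and few were called in both pairs. A gene was called when its difference had a Benjamini-Hochberg adjusted p under 0.05 in limma over the 7374 genes with a z-score above 0 in at least 1 of the 15 arrays. Between LA and RA 348 genes were called (4.72% of those tested), 150 higher (2.03%) and 198 lower (2.69%) in LA. Between LV and RV 249 were called (3.38%), 112 higher (1.52%) and 137 lower (1.86%) in LV. The difference between the left-right differences, (LA - RA) - (LV - RV), called the interaction here, was itself tested and passed for 462 genes (6.27%), 256 with a higher (3.47%) and 206 with a lower (2.79%) left-minus-right value in the atria. With quantile normalization of the arrays the balance was turned, at 310 higher and 337 lower. At an unadjusted p under 0.05 there were 1204, 1485 and 1653 genes in the LA minus RA, the LV minus RV and the interaction contrasts. The arrays of LA and RA did not overlap in 706 genes (9.57%), and those of LV and RV in 1307 (17.7%) with 3 LV arrays. Counts of calls within gene lists, given below, are to be read beside the shares of all tested genes called.

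Sorted by call, 167 genes were called between the atria alone and passed the interaction, and 156 were called there alone without it. Between the ventricles alone, 142 genes were called with the interaction and 82 without it. In all, 25 genes were called in both pairs, 17 of them in opposite and 8 in the same direction, and 134 passed the interaction with neither pair called. Differences of at least 1 SD were found for 22 genes called between the atria and 3 genes called between the ventricles. Across the 7374 genes, the left-right differences of the pairs had Pearson's r = -0.103 and Spearman's rho = -0.182, given as a description since genes share the arrays.

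The ventricular count depended on single arrays and on the atrial arrays in the fit. Fitted on the ventricles alone, LV minus RV gave 20 calls, and it gave 141 without LV replicate 1, 103 without LV replicate 2, 164 without LV replicate 3, 104 without RV replicate 1, 72 without RV replicate 2 and 81 without RV replicate 4. Without LV replicate 1 and RV replicates 2 and 3, the arrays with atrial transcripts, 65 ventricular calls were made, 42 of them among the 249. Of the 36 ventricular calls named here, 9 passed in the fit of the ventricles alone and 12 without those 3 arrays. The genes that passed both ways were *Nppb*, *Nrn1*, *Mybpc2*, *Mybpc3*, *Aqp4*, *Wif1* and *Sort1*. Without those 3 arrays, the ventricles were held by LV replicates 2 and 3 and RV replicates 1 and 4 alone. Among calls lost there, LV minus RV was larger for *Kcnk3* (0.51 against 0.374) and smaller for *Bdh1* (0.555 against 0.688). Whether fewer arrays or atrial transcripts cost a call was not tested. The atrial count was 252 to 419 when any 1 array was left out. The interaction count was 288 without RV replicate 4 and 312 to 574 without any other array.

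**Figure D2:**
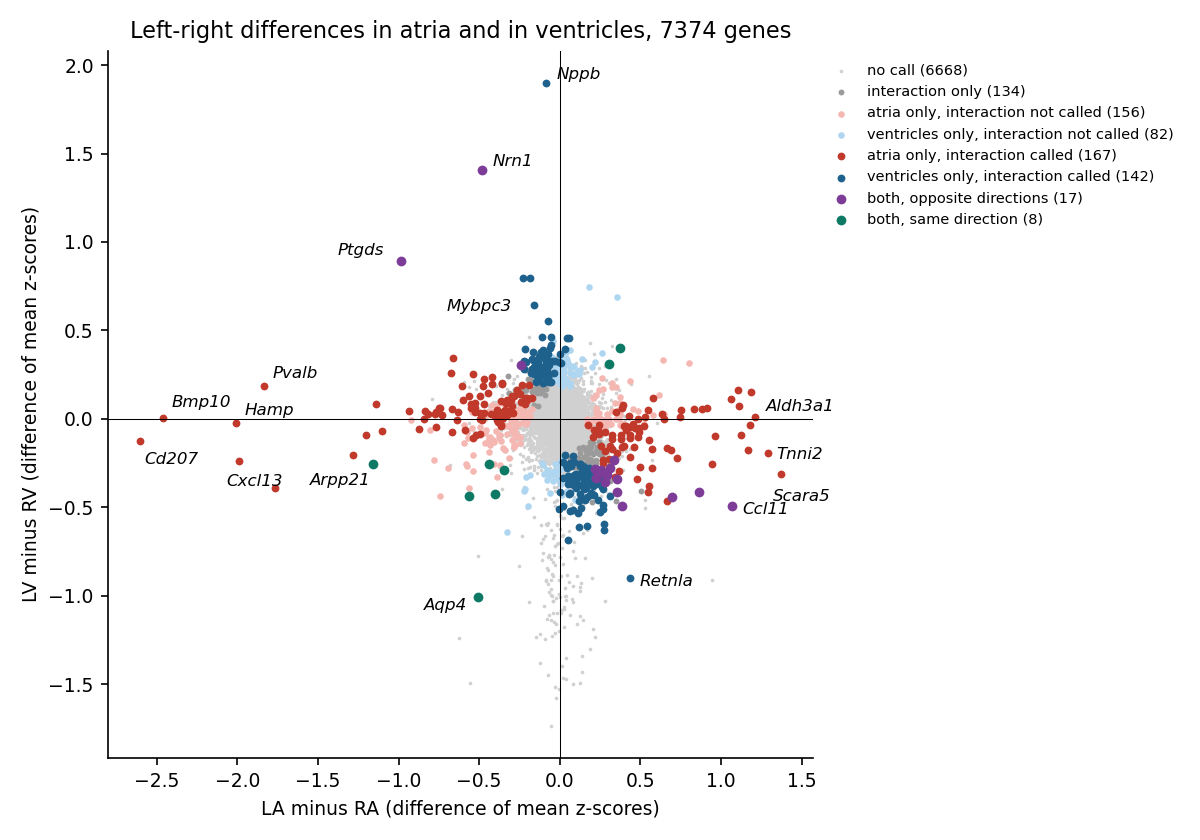
LA minus RA (horizontal axis) against LV minus RV (vertical axis), both as differences of mean z-scores, for the 7374 tested genes, coloured by which contrasts were called. *Cd207* and *Bmp10* lie far to the left near 0 on the vertical axis and *Nppb* near the top; of the 100 uncalled genes below -0.7 on the vertical axis, 98 are among those that lay below every value of the other arrays in LV replicate 3.

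In the right atrium, 91 genes of the class called between the atria alone, with the interaction passed, were higher, and in 72 of them every RA array lay above every other array of the 15, which held for 233 of the 7374 genes. The class was picked on these same arrays, so the count follows in part from that choice and is a description only. The most distant were *Cd207*, langerin, a lectin of Langerhans cells and some dendritic cells, and *Bmp10*, a ligand of the bone morphogenetic protein (BMP) family made by heart muscle. *Bmp10* had -0.67, -0.70, -0.62 and -0.69 in LA and 1.67, 1.94, 1.91 and 1.64 in RA. In the ventricles it had -0.53, -0.67 and -0.62 in LV and -0.67, -0.51, -0.63 and -0.65 in RV. It was thus raised in RA alone, at about the same low level in the other regions, with LA minus RA of -2.46 ± 0.0677 (SE, adjusted p = 3.52e-12), LV minus RV of 0.0083 ± 0.0731 (95% interval -0.15 to 0.16) and an interaction of -2.47 ± 0.0996 (adjusted p = 1.01e-09). In bulk tissue, fewer cells of a type and less RNA per cell cannot be told apart.

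*Cd207* had -0.69, -0.56, -0.63 and -0.49 in LA and 1.96, 1.84, 2.29 and 1.94 in RA, against -0.67 to -0.53 in LV and -0.68 to -0.23 in RV, and LA minus RA was -2.60 ± 0.101 (adjusted p = 2.05e-10). Its other probe gave -2.13. *Hamp* encodes hepcidin, the peptide that lowers iron export by ferroportin, and has a close copy, *Hamp2*, that its probe may not tell apart. It had 0.71, 1.03, 0.39 and 0.87 in LA and 2.78, 2.79, 2.57 and 2.88 in RA, and was below 0 in every ventricular array. *Hamp* was therefore an atrial transcript with its higher level on the right, and the interaction was -1.98 ± 0.204 (adjusted p = 4.54e-05). *Pvalb*, parvalbumin, a calcium buffer of fast muscle and neurons, had -0.54, -0.54, -0.70 and -0.54 in LA and 1.15, 1.16, 1.38 and 1.33 in RA. In LV and RV its arrays lay at -0.57 to -0.25 and -0.67 to -0.60, and LV minus RV of 0.19 was not called (adjusted p = 0.192). *Arpp21*, a cyclic AMP regulated phosphoprotein, was also lower in LA and was called in both pairs, with which it is described.

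The hormone and transmitter genes among them were *Adm*, adrenomedullin, a vasodilator peptide, and *Dbh*, the enzyme that makes noradrenaline from dopamine. *Adm* had -0.22, -0.11, -0.41 and -0.32 in LA and 1.28, 0.84, 0.93 and 1.03 in RA, with all ventricular arrays at -0.32 to 0.04. *Dbh* had -0.37, -0.42, -0.49 and -0.59 in LA and 0.85, 0.82, 0.55 and 0.72 in RA. Neither gene overlapped between the atria, nor did 9.57% of all tested genes, and the rule that named them required it. Their interactions were -1.08 ± 0.124 (adjusted p = 0.000111) for *Adm* and -1.11 ± 0.119 (adjusted p = 6.68e-05) for *Dbh*. Of the 9 tested genes of vasoactive peptides and their receptors, 1 was higher and 2 lower in LA, with a median of -0.08, where the median of all tested genes was 0. The other 2 called were *Uts2b*, a urotensin-like peptide that was higher in LA, and *Ednrb*, an endothelin receptor, at 2.08 to 2.29 in LA and 2.32 to 2.46 in RA (LA minus RA -0.24, adjusted p = 0.0429); *Ednrb* lost its call without any 1 array other than LA replicate 2, RA replicate 4, LV replicates 2 and 3 or RV replicate 2, at adjusted p of 0.0504 to 0.118. Of 4 tested neuronal genes, *Dbh* was the one called between the atria, and the list's mean over 14 measured genes was -0.65 to -0.63 in LA arrays and -0.54 to -0.3 in RA arrays. *Th*, *Phox2a*, *Chat* and 7 more measured neuronal genes were at or below 0 on every array and were not tested. The part of nerve tissue in the result was not tested.

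Factors of the sinus venosus and the pacemaker were called on the right side of the atria. Of 13 listed, 11 were measured and 6 tested, of which 3 were lower in LA and none higher, with a median LA minus RA of -0.39 and a median LV minus RV of -0.07. *Shox2*, a homeobox factor needed for pacemaker development, had -0.28, -0.38, -0.37 and -0.26 in LA and 0.51, 0.55, 0.52 and 0.51 in RA. It was -0.46 to -0.36 in LV and -0.55 to -0.29 in RV, so that RA alone lay above 0, and the interaction was -0.85 ± 0.0798 (adjusted p = 2.11e-05). *Cacna1g*, the pore of a T-type calcium channel, was -0.40 to -0.21 in LA and 0.01 to 0.13 in RA (LA minus RA -0.36, adjusted p = 0.000301). *Rgs6*, which shortens muscarinic signalling in the heart, was 0.11 to 0.47 in LA and 0.65 to 0.71 in RA (LA minus RA -0.41, adjusted p = 0.00101), and its interaction was not called (adjusted p = 0.081). *Tbx3*, a T-box repressor of working muscle genes in the pacemaker that was picked after its values were seen, had 0.20, 0.31, 0.17 and 0.09 in LA and 0.72, 0.75, 0.78 and 0.54 in RA without a call (adjusted p = 0.52). LV replicate 3 held it at -1.5, while the other ventricular arrays had 0.64 to 0.85. Without that array LA minus RA of *Tbx3* was -0.51 (adjusted p = 0.000238) and its interaction -0.48 (adjusted p = 0.016). *Isl1*, the progenitor factor of the sinus venosus, was -0.93 to -0.77 in LA and -0.52 to -0.33 in RA and was not tested, being below 0 on all 15 arrays. The list's mean was -0.24 to -0.16 in LA arrays and 0.06 to 0.08 in RA arrays, and the part of nodal tissue in the RA pieces was not tested.

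Genes of the ventricular field list, most of them transcription factors of the embryonic heart, gave calls between the atria. Of 13 tested, 3 were lower in LA and none was called between LV and RV. In each pair 5 had an unadjusted p under 0.05, against 1204 (atria) and 1485 (ventricles) of all 7374 genes. *Hey1*, a repressor downstream of Notch, was 1.10 to 1.26 in LA and 1.60 to 1.83 in RA, and 1.25 to 1.42 in LV and 1.06 to 1.42 in RV (interaction -0.62 ± 0.114, adjusted p = 0.00474). *Irx3*, a homeobox factor of the fast conduction system, was 0.28 to 0.44 in LA and 0.92 to 1.03 in RA (LA minus RA -0.57, adjusted p = 0.00423). *Tbx20*, a T-box factor of heart muscle, was 0.27 to 0.60 in LA and 0.93 to 1.09 in RA (LA minus RA -0.54, adjusted p = 0.00426). *Irx3* and *Tbx20* did not pass the interaction (adjusted p = 0.075 and 0.353), so a difference between the chamber pairs was not shown for them. *Pln*, phospholamban, which restrains the calcium pump of heart muscle and is on this list too, was picked after its values were seen. It had 2.54, 2.75, 2.53 and 2.79 in LA and 2.35, 2.52, 2.34 and 2.34 in RA, and 2.94, 3.16 and 3.63 in LV and 3.51, 3.45, 3.49 and 3.52 in RV without a call. Leaving out LV replicate 3, it was called in both pairs with opposite sides, at 0.27 for LA minus RA (adjusted p = 0.034) and -0.44 for LV minus RV (adjusted p = 0.0182), and passed the interaction (adjusted p = 0.00138). *Tbx5* and *Hand2*, factors with known chamber patterns in the embryo, were called in no contrast, with LA minus RA of -0.23 (95% interval -0.39 to -0.074) and LV minus RV of -0.023 (-0.19 to 0.15) for *Tbx5*, and -0.022 (-0.27 to 0.23) and -0.018 (-0.29 to 0.25) for *Hand2*. Without LA replicate 3, LA minus RA of *Tbx5* was -0.299 and was called. *Hand1* was below 0 on every array and was not tested. Of the left-right signalling genes, *Lefty1*, *Acvr2b* and *Smad2* were tested and not called in limma, none at an unadjusted p under 0.05.

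Genes of antigen presentation were also higher in RA than in LA, whereas other genes linked to immunity lay on both sides, *Ccl8*, *Ccl11* and *Clec10a* being higher in LA. Of 7 tested genes of antigen presentation, 5 were lower in LA and none higher, with a median LA minus RA of -0.81 against a median LV minus RV of -0.06. *H2-Eb1*, a class II major histocompatibility chain, had 0.48, 0.49, 0.64 and 0.67 in LA and 1.37, 1.43, 1.33 and 1.64 in RA. In the ventricles it had 0.95, 1.50 and 1.57 in LV and 0.89, 1.53, 1.66 and 1.50 in RV, so that replicate 1 of each ventricle was low and the other ventricular arrays were about as high as RA. LA minus RA was -0.87 ± 0.153 (adjusted p = 0.00249) and the interaction -0.82 ± 0.226 (adjusted p = 0.0435), which was lost without any 1 array other than LA replicate 4, LV replicate 1 or RV replicates 1 and 3, at adjusted p of 0.0506 to 0.0995. *H2-Ab1*, *Cd74*, the chaperone of these chains, and *H2-DMa*, which loads them with peptide, were also lower in LA, with LA minus RA of -0.93, -0.81 and -0.57 (adjusted p = 0.00715, 0.0104 and 0.0184), and none of these passed the interaction. Mean levels in LA, RA, LV and RV were 0.73, 1.66, 1.55 and 1.55 for *H2-Ab1* and 1.19, 2, 1.79 and 1.86 for *Cd74*. In both genes LA had the lowest mean, and the ventricles were nearer to RA. Leaving out LV replicate 3, *H2-Aa* and *H2-DMb1* were called as well (adjusted p = 0.00827 and 0.0444), which made 7 of 7. The list's mean over 9 measured genes was 0.01 to 0.19 in LA arrays and 0.77 to 1.02 in RA arrays, and 0.16 to 0.68 in LV arrays and 0.19 to 0.68 in RV arrays. *Cd207*, which was raised in RA alone, is on this list and lifts its mean there.

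*Cxcl13*, a chemokine that attracts B cells, had -0.71, -0.67, 0.15 and -0.62 in LA and 1.0, 1.42, 2.26 and 1.42 in RA, with replicate 3 highest in both, and LA minus RA was -1.99 ± 0.22 (adjusted p = 4.81e-05). *Vsig4*, a complement receptor of resident macrophages, had 0.80, 0.40, 1.08 and 0.39 in LA and 2.39, 2.31, 2.68 and 2.36 in RA. Its ventricular arrays were -0.34 to -0.12 in LV and -0.20 to 0.38 in RV, and the interaction was -1.38 ± 0.219 (adjusted p = 0.00171). Of the other tested leukocyte genes, *Lyz2*, lysozyme of myeloid cells, was 2.03 to 2.53 in LA and 2.43 to 2.78 in RA (adjusted p = 0.0356, lost without LA replicates 1, 2 and 4, RA replicates 3 and 4 or RV replicate 4, at adjusted p of 0.05 to 0.11). The *Lyz2* probe used gave -0.41 for LA minus RA and -0.255 for LV minus RV. Another, at 1.58 in LA and 1.64 in RA, gave -0.06 and -0.60, so the atrial difference rests on 1 probe. *Adgre1*, a surface receptor of macrophages, was called between the ventricles alone, at -0.08 to 0.30 in LV and 0.47 to 0.72 in RV (adjusted p = 0.0419, lost without any 1 array other than LA replicates 1, 3 and 4, RA replicates 1 and 3 or LV replicate 3, at adjusted p of 0.0508 to 0.115). Its dimmer probes gave -0.271 and -0.022 for LV minus RV. *Ptprc*, *Cd3e*, *Cd79a* and *Itgam*, which define leukocytes and their main kinds, were at or below 0 on every array. Leukocyte genes averaged -0.12 to 0.06 in LA arrays and 0.22 to 0.34 in RA arrays over 9 measured genes, and the part of cell number in these results was not tested.

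Vessel wall and pigment cell genes showed smaller differences. *Vwf*, the von Willebrand factor of endothelium, was 1.93 to 2.05 in LA and 2.26 to 2.54 in RA (LA minus RA -0.41, adjusted p = 0.00325). *Acta2*, smooth muscle actin, was 2.23 to 2.62 in LA and 2.68 to 3.39 in RA (adjusted p = 0.0186), a call lost without LA replicates 1 and 4 or RA replicates 1 and 3, at adjusted p of 0.054 to 0.061. *Mylk*, the kinase of the myosin light chain of smooth muscle, went the other way, at 0.34 to 0.54 in LA and 0.08 to 0.22 in RA (adjusted p = 0.0203), and its call was lost without LA replicate 3 or RA replicates 2 and 3, at adjusted p of 0.0557 to 0.0664. The smooth muscle list thus had 1 gene higher and 1 lower in LA of 6 tested. Without LV replicate 3 the interaction of *Acta2* passed as well (adjusted p = 0.0468), *Myh11*, a smooth muscle myosin, was called between the ventricles (0.34, adjusted p = 0.0469), and *Tek*, the receptor Tie2 of endothelium, was lower in LA (-0.25, adjusted p = 0.0174). Of 3 tested melanocyte genes, *Dct*, dopachrome tautomerase, was -0.86 to -0.80 in LA and -0.46 to 0.19 in RA with an interaction of -1.01 ± 0.182 (adjusted p = 0.00431). *Mlana*, the melanosome protein melan-A, was 1.94 to 2.35 in LA and 2.41 to 2.51 in RA and below 0 in all ventricular arrays (LA minus RA -0.33, adjusted p = 0.031, lost without LA replicates 1 and 3 or RA replicates 1, 2, 3 and 4, at adjusted p of 0.051 to 0.0962). *Mitf*, the melanocyte master factor, which other cells also make, leaned the other way, at 0.17 to 0.44 in LA and 0.07 to 0.17 in RA without a call (adjusted p = 0.23), and its interaction passed without LV replicate 3 (0.39, adjusted p = 0.0443).

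In the left atrium, 76 genes called between the atria alone, with the interaction passed, were higher. Here every LA array lay above every other array in 40 genes, and every RA array below every other array in 28, against 92 and 163 of all 7374 genes. These counts too follow in part from how the class was picked. RA was the low region of the gene with the largest difference, *Scara5*, a scavenger receptor that binds ferritin. *Scara5* had 1.67, 1.72, 1.46 and 1.70 in LA and 0.40, 0.19, 0.01 and 0.47 in RA. In the ventricles it had 1.08, 1.05 and 1.35 in LV and 1.49, 1.46, 1.33 and 1.60 in RV, so that RA was the low region, with LA minus RA of 1.37 ± 0.1 (adjusted p = 3.62e-07) and an interaction of 1.68 ± 0.147 (adjusted p = 8.93e-06). *Timp4*, an inhibitor of matrix metalloproteinases, also had RA as its low region, with 1.27, 1.11, 1.36 and 1.12 in LA, 0.12, -0.08, 0.02 and 0.08 in RA, and 1.35 to 1.80 in the ventricles (LA minus RA 1.18 ± 0.0969, adjusted p = 1.36e-06).

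Other genes had LA as their highest region. *Tnni2*, the inhibitory troponin of fast skeletal muscle, had 1.72, 1.70, 1.74 and 1.40 in LA and 0.55, 0.31, 0.21 and 0.33 in RA. The ventricular arrays had -0.06 to 0.08 in LV and 0.14 to 0.27 in RV, and the interaction was 1.48 ± 0.118 (adjusted p = 3.53e-06). *Atp2a1*, the calcium pump of fast skeletal muscle, was also atrial and higher on the left, at 1.49 to 1.75 in LA and 0.99 to 1.18 in RA and below 0 in all ventricular arrays (LA minus RA 0.55 ± 0.0655, adjusted p = 0.000105). Of 4 tested genes of fast skeletal muscle, these 2 were higher and *Pvalb* was lower in LA, while *Myh1*, *Myh4*, *Actn3*, *Mylpf* and *Tnnc2* were at or below 0 on every array. The list's mean over 9 measured genes was -0.17 to -0.11 in LA arrays and -0.14 to -0.08 in RA arrays. *Aldh3a1*, an aldehyde dehydrogenase, had 1.16, 1.13, 1.18 and 1.30 in LA and -0.16, 0.11, 0.01 and -0.04 in RA, with LV minus RV at 0.0092 (95% interval -0.20 to 0.22). *Ppp1r1b*, a phosphatase inhibitor regulated by dopamine in the brain, had 2.21, 2.40, 2.32 and 2.44 in LA and 1.34, 1.20, 1.08 and 1.30 in RA and was below 0 in all ventricular arrays (LA minus RA 1.11 ± 0.0764, adjusted p = 2.15e-07). *Ddit4l*, an inhibitor of mTOR signalling, was 0.79 to 1.45 in LA and -0.32 to 0.16 in RA. None of these genes overlapped between LA and RA, nor did 9.57% of all tested genes. The rule that named them, other than *Atp2a1*, required it.

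Secreted factors were found on both sides of the atria. *Chrd*, chordin, which binds and blocks BMP ligands, had 0.86, 0.78, 1.01 and 0.91 in LA and 0.12, 0.22, 0.34 and 0.12 in RA. It was -0.04 to 0.23 in LV and 0.03 to 0.40 in RV, and the interaction was 0.87 ± 0.125 (adjusted p = 0.000808). Of 6 tested ligands and antagonists of the BMP and TGF-beta families, *Chrd* was the 1 higher and *Bmp10* the 1 lower in LA, and none was called between LV and RV or at an unadjusted p under 0.05 there. *Uts2b* was 1.03 to 1.67 in LA and 0.30 to 0.98 in RA (LA minus RA 0.83 ± 0.135, adjusted p = 0.00133), and its interaction of 0.78 (adjusted p = 0.0314) was lost without any 1 array other than LA replicate 4, RA replicate 3 or LV replicates 1 and 3, at adjusted p of 0.0503 to 0.0723. *Ccl8*, a chemokine for monocytes and other leukocytes, was 0.38 to 1.61 in LA and -0.50 to 0.16 in RA (LA minus RA 1.12 ± 0.21, adjusted p = 0.00421), and its interaction (adjusted p = 0.0305) was lost without any 1 array other than LA replicates 2, 3 and 4, RA replicate 3, LV replicate 3 or RV replicate 1, at adjusted p of 0.0513 to 0.0739.

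Of 5 tested genes of lymphatic vessels, 2 were higher in LA, with a median of 0.32 against -0.02 for LV minus RV. *Ccl21a*, a lymphatic chemokine with near-identical copies that its probe may not tell apart, was 1.09 to 1.50 in LA and -0.31 to 0.61 in RA (LA minus RA 1.19 ± 0.149, adjusted p = 0.000159). *Reln*, reelin, was 0.14 to 0.37 in LA and -0.33 to 0.05 in RA (adjusted p = 0.00159). *Lyve1*, a defining marker, was 1.07 to 1.91 in LA and 1.31 to 2.20 in RA without a call (adjusted p = 0.816). *Prox1*, the factor of lymphatic identity, was called without LV replicate 3 (0.30, adjusted p = 0.0428). The list's mean over 6 measured genes was 0.94 to 1.22 in LA arrays and 0.67 to 0.78 in RA arrays. Of 3 tested red blood cell genes, 2 globins were higher in LA. *Hba-a1*, an alpha globin, was 3.42 to 3.83 in LA and 3.02 to 3.09 in RA (LA minus RA 0.64 ± 0.0821, adjusted p = 0.000202), and it has a near-identical copy. The other, *Hbb-bt*, was called in both pairs, with which it is described. *Alas2*, the first enzyme of heme synthesis in red blood cells, was 0.22 to 0.54 in LA and -0.20 to -0.16 in RA without a call (adjusted p = 0.0729), and was called without LV replicate 3 (0.57, adjusted p = 6.46e-05). The red blood cell genes averaged 0.82 to 0.97 in LA arrays and 0.43 to 0.48 in RA arrays over 5 measured genes. The part of residual blood in the atrial results was not tested.

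**Figure D3:**
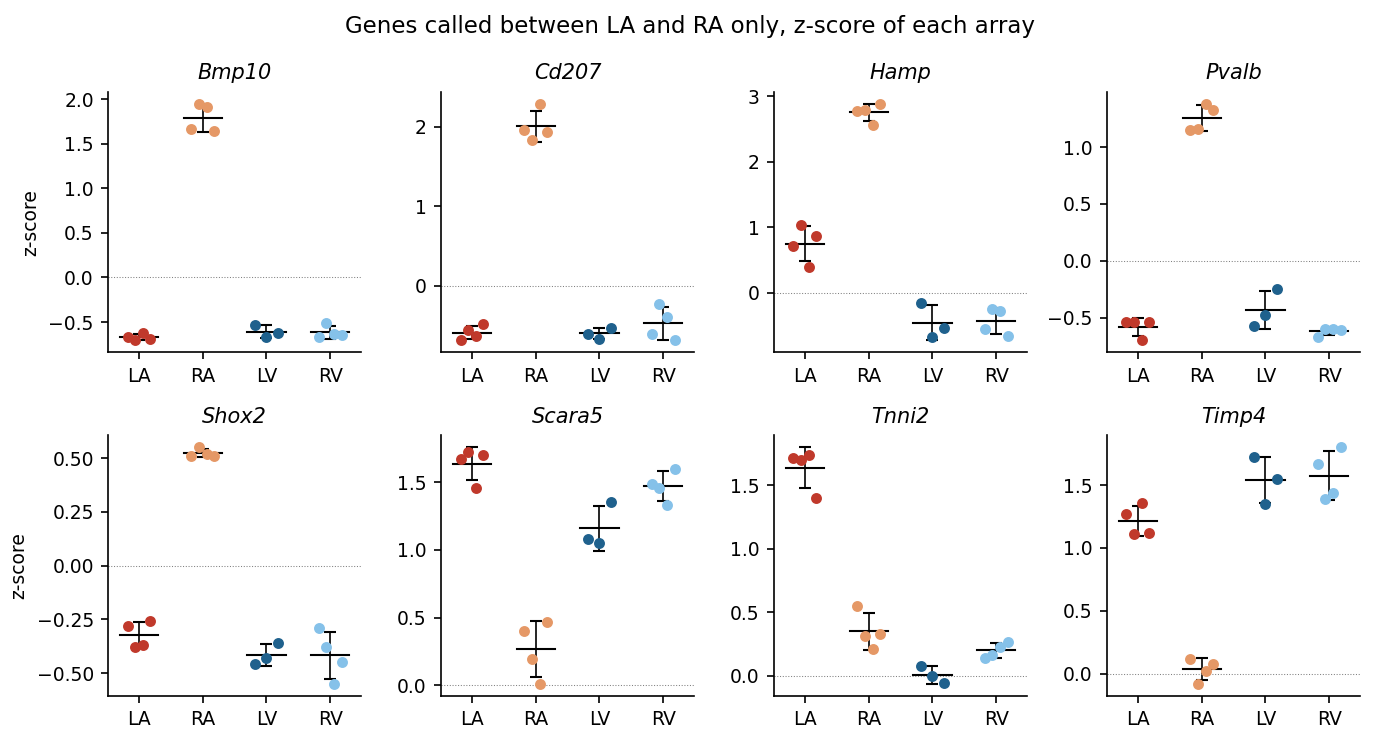
Z-scores (vertical axis, SD from the array mean) in each array of LA, RA, LV and RV for 8 genes called between the atria alone with the interaction passed. Points are arrays, long bars means and error bars SD (n = 4, LV n = 3); *Bmp10*, *Cd207*, *Pvalb* and *Shox2* are raised in RA alone, and RA is the low region for *Scara5* and *Timp4*.

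In the ventricles, 61 genes of the class called there alone with the interaction passed were higher in LV and 81 were higher in RV. Every LV array lay above every other array in 42 of the 61, against 311 of all 7374 genes, a count that follows in part from how the class was picked. *Nppb*, the B-type natriuretic peptide released by stretched heart muscle, had the largest difference and a different order. It had 3.25, 3.61 and 3.39 in LV and 1.13, 1.34, 1.64 and 1.96 in RV. In the atria it had 3.20, 3.95, 3.17 and 3.34 in LA and 3.35, 3.32, 3.91 and 3.43 in RA, so that RV was the one low region and LV lay within the atrial range. LV minus RV was 1.90 ± 0.208 (adjusted p = 0.000309), LA minus RA -0.087 ± 0.193 (95% interval -0.50 to 0.32) and the interaction -1.99 ± 0.284 (adjusted p = 0.000799). *Nppb* was the 1 call of 13 tested genes of load and stretch, whose median LV minus RV was 0.2 and median LA minus RA -0.02. *Acta1*, the skeletal form of alpha actin, had 3.78, 3.38 and -1.31 in LV and 2.22, 1.60, 2.51 and 2.93 in RV without a call, LV replicate 3 being far below the others. Without that array it was called too, at 1.26 for LV minus RV (adjusted p = 0.025) and -1.21 for the interaction (adjusted p = 0.0462). *Nppa*, the A-type peptide, was 3.49 to 3.88 in LV and 3.12 to 3.61 in RV without a call (adjusted p = 0.256). Leaving out LV replicate 1 and RV replicates 2 and 3 kept *Nppb* at 1.95 (adjusted p = 0.0304).

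Sarcomere genes were among those higher in LV. *Mybpc3*, the cardiac myosin-binding protein C, had 3.85, 3.98 and 4.00 in LV and 3.28, 3.31, 3.36 and 3.24 in RV. With 2.57 to 2.83 in LA and 2.79 to 3.05 in RA it was lower in the atria, and the interaction was -0.81 ± 0.0987 (adjusted p = 0.000194). *Mybpc2*, the fast skeletal form, had 0.54, 0.67 and 0.60 in LV and -0.15, -0.31, -0.25 and -0.06 in RV (LV minus RV 0.80 ± 0.102, adjusted p = 0.00127). *Ankrd23*, an ankyrin repeat protein of the titin filament, had 2.25, 2.62 and 2.45 in LV and 1.38, 1.58, 1.82 and 1.80 in RV (adjusted p = 0.00443). These genes did not overlap between the ventricles, nor did 17.7% of all tested genes, and the rule that named them required it. *Mybpc3* and *Mybpc2* also passed in the fit of the ventricles alone, while *Ankrd23* did not. *Bdh1*, a ketone body dehydrogenase, was 1.70 to 1.93 in LV and 0.80 to 1.41 in RV (adjusted p = 0.0142), a call lost in the fit of the ventricles alone (adjusted p = 0.0648) and without LV replicate 1 and RV replicates 2 and 3 (adjusted p = 0.1). *Tnfrsf12a*, the receptor of the cytokine TWEAK, was 1.49 to 1.77 in LV and 0.75 to 1.23 in RV (adjusted p = 0.0498, lost without any 1 array other than LA replicates 2 and 4 or RA replicate 3, at adjusted p of 0.0541 to 0.123). Neither passed the interaction (adjusted p = 0.289 and 0.226). *Cdh5*, the cadherin of endothelial junctions, was 0.93 to 1.04 in LV and 0.59 to 0.73 in RV (interaction -0.45 ± 0.0771, adjusted p = 0.00332), the 1 call of 11 tested endothelial genes between the ventricles.

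Of 14 tested potassium channel genes, 2 were called higher and 2 lower in LV and none was called between the atria. In each pair 4 had an unadjusted p under 0.05, against 1204 (atria) and 1485 (ventricles) of all 7374 genes. *Kcne1*, a beta subunit of the slow delayed rectifier, had 0.35, 0.29 and 0.57 in LV and -0.06, -0.13, -0.09 and 0.05 in RV and was below -0.5 in every atrial array (LV minus RV 0.46 ± 0.0688, adjusted p = 0.00443). Its 3 other probes were dimmer and differed by -0.04 to 0.03 between LV and RV. *Kcnk3*, an acid-sensitive background channel, was 1.43 to 1.68 in LV and 1.08 to 1.26 in RV (adjusted p = 0.0345, lost without LV replicates 2 and 3 or RV replicates 1, 2 and 4, at adjusted p of 0.0674 to 0.0959). *Kcnj2*, the inward rectifier that sets the resting potential, had -0.07, 0.06 and 0.32 in LV and 0.55, 0.72, 0.66 and 0.61 in RV (adjusted p = 0.0157, lost without LV replicates 1 and 2 or RV replicate 2, at adjusted p of 0.0534 to 0.057). *Kcnd2*, a channel of the transient outward current, had 0.23, 0.30 and 0.44 in LV and 0.77, 0.90, 0.81 and 0.60 in RV (LV minus RV -0.45 ± 0.0824, adjusted p = 0.0126). The channels thus differed in opposite directions, *Kcne1* and *Kcnk3* being higher and *Kcnj2* and *Kcnd2* lower in LV, and *Kcnk3* did not pass the interaction (adjusted p = 0.609). None of the 4 ventricular calls passed in the fit of the ventricles alone (adjusted p of 0.0503 to 0.064) or without LV replicate 1 and RV replicates 2 and 3 (adjusted p of 0.0544 to 0.169). Without those 3 arrays the interaction passed for *Kcne1* (adjusted p = 0.038) and not for *Kcnj2* and *Kcnd2* (adjusted p = 0.111 and 0.0706).

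Among the 81 genes higher in RV, every LV array lay below every other array in 30 and every RV array above every other array in 23, against 298 and 110 of all genes. Again the counts follow in part from how the class was picked. *Wif1*, a secreted inhibitor of WNT ligands, had -0.03, -0.18 and -0.12 in LV and 0.48, 0.63, 0.68 and 0.50 in RV. In LA and RA it was -0.62 to -0.49 and -0.68 to -0.50, so that it was ventricular and highest on the right, with LV minus RV of -0.68 ± 0.0632 (adjusted p = 6.62e-05) and an interaction of 0.73 ± 0.0861 (adjusted p = 0.000131). *Wif1* was the 1 call of 5 tested genes of cartilage and valve, and it was called with LV replicate 4 included and without LV replicate 1 and RV replicates 2 and 3. *Retnla*, a secreted product of alternatively activated macrophages, had 0.04, 0.26 and 0.07 in LV and 0.58, 1.16, 1.26 and 1.08 in RV (LV minus RV -0.90 ± 0.166, adjusted p = 0.0126). It was not called without the 3 ventricular arrays with atrial transcripts.

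*Sort1*, the sorting receptor sortilin, had 1.33, 1.47 and 1.26 in LV and 1.93, 2.08, 1.95 and 1.89 in RV, and 2.92 to 3.27 in the atria, so that LV was the low region (interaction 0.73 ± 0.105, adjusted p = 0.000825). *Angpt1*, a ligand of the endothelial receptor Tie2, was in the same order, at 0.32, 0.30 and 0.54 in LV, 1.39, 1.18, 0.83 and 0.65 in RV and 1.73 to 2.17 in the atria (adjusted p = 0.0238, lost without LV replicates 1 and 2 or RV replicate 2, at adjusted p of 0.063 to 0.0762). *Scn10a*, a sodium channel known from sensory neurons and the conduction system, was -0.47 to -0.34 in LV and -0.03 to 0.50 in RV (adjusted p = 0.0238, lost without LV replicates 1 and 2 or RV replicates 1 and 2, at adjusted p of 0.0509 to 0.0642). The atrial levels of all 3 lay above those of LV. Whether LV replicate 1 and RV replicates 2 and 3 held atrial tissue, and its part in these differences, was not tested. Without those 3 arrays *Sort1* was called and *Angpt1* and *Scn10a* were not. *Sdhd*, a membrane subunit of succinate dehydrogenase, was 1.37 to 1.55 in LV and 1.89 to 2.37 in RV (adjusted p = 0.0154, lost without LV replicate 2, at an adjusted p of 0.0592). *Ddc*, the decarboxylase that makes dopamine, was -0.46 to -0.21 in LV and 0.21 to 0.42 in RV (adjusted p = 0.0128) without a passing interaction (adjusted p = 0.282). The call of *Ddc* passed in the fit of the ventricles alone (adjusted p = 0.0231), and was lost without the 3 arrays with atrial transcripts (adjusted p = 0.1) and with the arrays of the sinoatrial node in the fit (adjusted p = 0.0619). It was also lost with the replicate numbers as a fixed block in the fit.

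**Figure D4:**
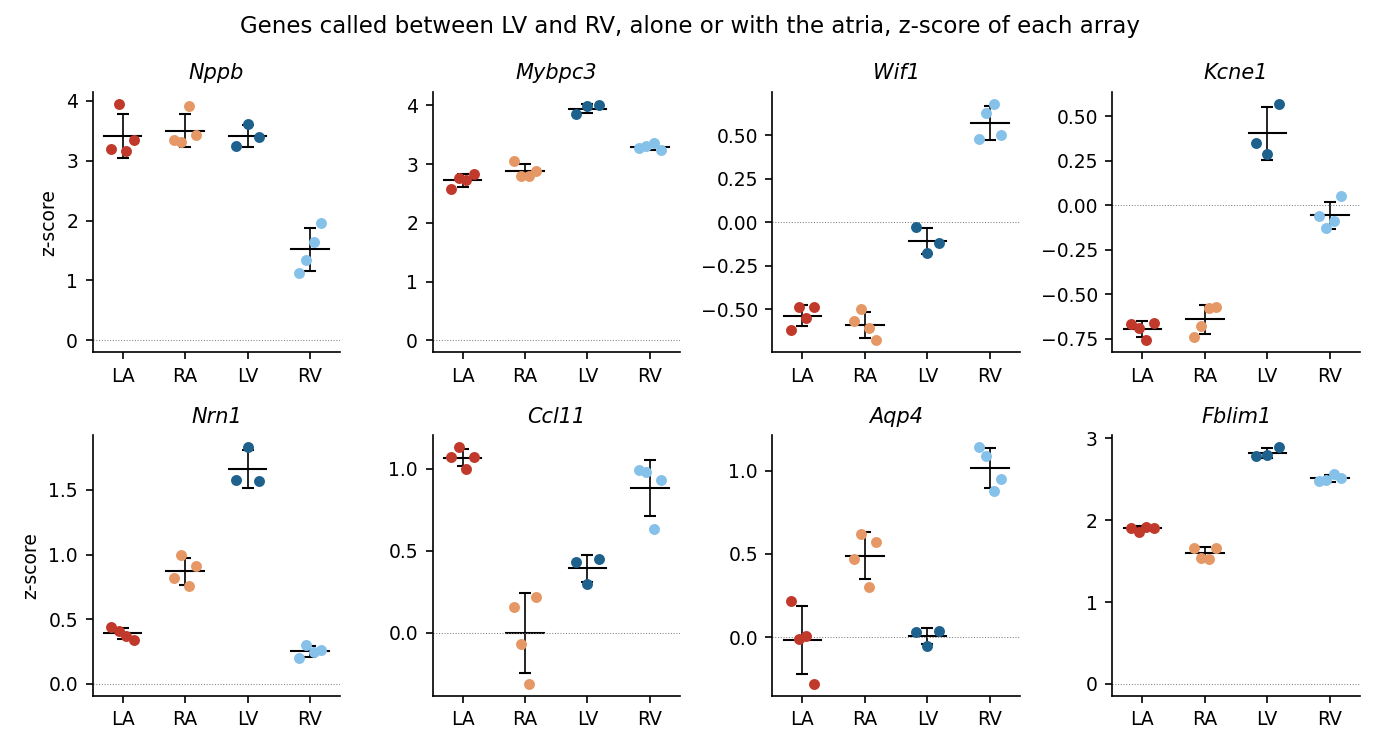
Z-scores (vertical axis, SD from the array mean) in each array of LA, RA, LV and RV for 8 genes called between the ventricles. Points are arrays, long bars means and error bars SD (n = 4, LV n = 3); RV is low for *Nppb*, the higher side of *Nrn1* and *Ccl11* differs between the chamber pairs, and that of *Aqp4* and *Fblim1* is the same.

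Of the 25 genes called in both pairs, 17 had opposite directions, 14 of them higher in LA and in RV and 3 higher in RA and in LV. The 3 were *Nrn1*, *Ptgds* and *Pfkp*. *Nrn1*, neuritin, a membrane-anchored growth factor, had 0.44, 0.41, 0.37 and 0.34 in LA and 0.82, 1.0, 0.76 and 0.91 in RA. It had 1.58, 1.83 and 1.57 in LV and 0.20, 0.30, 0.25 and 0.26 in RV. LV was thus highest and RV lowest, with no overlap in either pair, and LA minus RA was -0.48 ± 0.0636 (adjusted p = 0.000246), LV minus RV 1.41 ± 0.0688 (adjusted p = 1.64e-08) and the interaction -1.89 ± 0.0937 (adjusted p = 1.02e-08). *Ptgds*, the synthase of prostaglandin D2, had -0.12, -0.19, -0.12 and -0.36 in LA and 0.69, 0.86, 0.80 and 0.81 in RA. In the ventricles it had 2.24, 1.71 and 1.72 in LV and 0.95, 0.35, 1.42 and 1.28 in RV, with RV replicate 2 lowest (interaction -1.88 ± 0.262, adjusted p = 0.000668). Its ventricular call (adjusted p = 0.0252) was lost without LV replicate 1 or RV replicate 1, at adjusted p of 0.0591 to 0.0776. *Pfkp*, a platelet-type phosphofructokinase of glycolysis, was 0.74 to 1.01 in LA and 1.05 to 1.22 in RA, and 1.28 to 1.43 in LV and 0.96 to 1.18 in RV (interaction -0.55, adjusted p = 0.0038). Its dimmer probes gave -0.08 and -0.035 for LA minus RA, and 0.048 and -0.086 for LV minus RV. The atrial call of *Pfkp* was lost without any 1 array other than LA replicate 4, RA replicate 3, LV replicate 3 or RV replicate 3, at adjusted p of 0.0504 to 0.139, and the ventricular one without LV replicates 2 and 3 or RV replicates 1, 2 and 4, at adjusted p of 0.076 to 0.0944.

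Genes higher in LA and in RV were led by 2 immune genes. *Ccl11*, eotaxin, had 1.07, 1.13, 1.0 and 1.07 in LA and 0.16, -0.07, -0.31 and 0.22 in RA. It had 0.43, 0.30 and 0.45 in LV and 0.99, 0.98, 0.63 and 0.93 in RV, which puts the sides in opposite order without overlap in either pair (interaction 1.56 ± 0.151, adjusted p = 2.57e-05). The other *Ccl11* probe had 0.7 for LA minus RA and -0.39 for LV minus RV. *Clec10a*, a lectin of macrophages and dendritic cells, had 0.67, 0.12, 0.41 and 0.40 in LA and -0.39, -0.58, -0.45 and -0.44 in RA. It had -0.59, -0.46 and -0.44 in LV and -0.24, 0.08, -0.16 and -0.01 in RV (interaction 1.28 ± 0.142, adjusted p = 8.24e-05). Both interactions were called with LV replicate 4 included. Of the ventricular calls, that of *Ccl11* (adjusted p = 0.0302) was lost without LV replicates 1 and 2 or RV replicates 1, 2 and 4, at adjusted p of 0.0598 to 0.0871 and that of *Clec10a* (adjusted p = 0.0431) without any 1 array other than LA replicates 1 and 2, at adjusted p of 0.0508 to 0.117.

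*Hbb-bt*, a beta globin with a near-identical copy, was 1.25 to 1.69 in LA and 0.65 to 0.90 in RA, and 1.16 to 1.30 in LV and 1.51 to 1.92 in RV (interaction 1.13 ± 0.15, adjusted p = 0.000413), with a ventricular call that was lost without any 1 array other than LA replicates 1 and 4, RA replicate 3 or RV replicate 3, at adjusted p of 0.0503 to 0.119. The alpha globin *Hba-a1* had the opposite sign in the ventricles, at 4.27 to 4.53 in LV and 3.94 to 4.14 in RV without a call (adjusted p = 0.0519). *Serpinb6b*, an intracellular protease inhibitor, was 1.0 to 1.20 in LA and 0.67 to 0.86 in RA, and 0.46 to 0.62 in LV and 0.67 to 0.97 in RV, a ventricular call lost without LV replicates 1 and 3 or RV replicates 1, 2 and 4, at adjusted p of 0.0658 to 0.0903. *Drd2*, a dopamine receptor, was 0.28 to 0.73 in LA and -0.02 to 0.37 in RA, and -0.63 to -0.48 in LV and -0.21 to 0.15 in RV. The atrial call of *Drd2* (adjusted p = 0.0493) was lost without any 1 array other than LA replicate 3, RA replicate 4, LV replicate 3 or RV replicate 2, at adjusted p of 0.0504 to 0.142, and the ventricular one without LV replicates 1, 2 and 3 or RV replicates 1 and 2, at adjusted p of 0.0584 to 0.0863. *Slc40a1*, the iron exporter ferroportin on which hepcidin acts, was of this class and was picked after its values were seen. It had 2.06, 2.04, 1.99 and 2.17 in LA and 1.76, 1.71, 1.80 and 1.86 in RA, against 1.44, 1.64 and 1.71 in LV and 1.91, 2.04, 1.88 and 1.99 in RV (interaction 0.64 ± 0.0927, adjusted p = 0.000825). In the atria its order was thus the reverse of that of *Hamp*, and in the ventricles *Hamp* was not called. The calls of *Slc40a1* were not followed with single arrays left out. With atria and ventricles fitted apart, the 1 gene called with opposite sides was *Nrn1*, so *Slc40a1* did not keep both calls.

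*Gpm6a*, a membrane glycoprotein of neurons and mesothelium, was 0.79 to 1.05 in LA and 0.48 to 0.68 in RA, and -0.69 to -0.49 in LV and -0.44 to 0.04 in RV (interaction 0.77 ± 0.143, adjusted p = 0.00474). The atrial call was lost without any 1 array other than LA replicate 4, LV replicate 3 or RV replicates 1 and 3, at adjusted p of 0.0504 to 0.139 and the ventricular call without any 1 array other than LA replicates 1, 3 and 4, RA replicate 3 or RV replicate 3, at adjusted p of 0.0502 to 0.123, and its 2 dimmer probes gave -0.04 to 0.005 for LA minus RA. *Gpm6a* was the 1 call of 10 tested mesothelial genes, whose median was 0.27 for LA minus RA and -0.13 for LV minus RV. The defining genes *Upk3b* and *Msln* were 1.79 to 2.22 and 0.46 to 0.96 in LA, and 1.85 to 1.90 and 0.00 to 0.50 in RA, without a call. The list's mean over 11 measured genes was 0.31 to 0.77 in LA arrays and 0.16 to 0.48 in RA arrays, and -0.41 to -0.37 in LV arrays and -0.39 to -0.04 in RV arrays, and the part of the covering tissue in the results was not tested.

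The 8 genes with the same side in both pairs were 2 higher on the left and 6 higher on the right. *Fblim1*, migfilin, a protein of focal adhesions, had 1.91, 1.86, 1.92 and 1.91 in LA and 1.66, 1.54, 1.53 and 1.66 in RA. It had 2.78, 2.80 and 2.89 in LV and 2.48, 2.49, 2.57 and 2.51 in RV, which gave almost the same difference in each pair, 0.30 ± 0.0461 for LA minus RA and 0.31 ± 0.0498 for LV minus RV (adjusted p = 0.000833 and 0.00713), with an interaction of -0.0083 (95% interval -0.15 to 0.14). *Sh3gl2*, an endophilin of vesicle uptake, was 0.59 to 0.78 in LA and 0.22 to 0.45 in RA, and 0.20 to 0.29 in LV and -0.26 to -0.02 in RV, an interaction of -0.025 (-0.23 to 0.18), while its 2 dimmer probes gave 0.06 and 0.12 for LA minus RA. In the fit of the ventricles alone neither ventricular call passed (adjusted p = 0.0503 for each), and without LV replicate 1 and RV replicates 2 and 3 that of *Fblim1* passed (adjusted p = 0.0461) and that of *Sh3gl2* did not (adjusted p = 0.124). On the right, *Aqp4*, a water channel, had 0.22, -0.01, 0.01 and -0.28 in LA and 0.47, 0.62, 0.30 and 0.57 in RA. It had 0.03, -0.05 and 0.04 in LV and 1.14, 1.09, 0.88 and 0.95 in RV, so the right side was higher in both pairs without overlap (adjusted p = 0.00423 for the atria and 0.000146 for the ventricles). The larger ventricular difference gave an interaction of 0.50 ± 0.139 (adjusted p = 0.0441) that was lost without any 1 array other than LA replicate 4, RA replicate 2, LV replicate 3 or RV replicate 3, at adjusted p of 0.0583 to 0.0934. *Arpp21* had -0.65, -0.58, -0.66 and -0.62 in LA and 0.48, 0.63, 0.38 and 0.64 in RA, and was -0.59 to -0.51 in LV and -0.35 to -0.18 in RV. Its ventricular difference of -0.25 (adjusted p = 0.0438) was small beside the atrial one of -1.16 (adjusted p = 8.02e-09) and was lost without any 1 array other than LA replicate 1 or RA replicates 2, 3 and 4, at adjusted p of 0.0509 to 0.12.

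The other 4 were *Vit*, *Pla2g5*, *Qpct* and *Tgfbi*. *Pla2g5*, a secreted phospholipase, was -0.23 to 0.08 in LA and 0.21 to 0.42 in RA, and -0.01 to 0.06 in LV and 0.36 to 0.53 in RV (interaction 0.022, 95% interval -0.19 to 0.23), and its ventricular call was lost without LV replicate 1 and RV replicates 2 and 3 (adjusted p = 0.121). *Vit*, the matrix protein vitrin, was -0.08 to 0.25 in LA and 0.55 to 0.87 in RA, and -0.44 to -0.32 in LV and -0.03 to 0.24 in RV. *Qpct*, a glutaminyl cyclase, was 0.53 to 0.72 in LA and 0.94 to 0.99 in RA, and -0.06 to 0.08 in LV and 0.17 to 0.41 in RV. *Tgfbi*, a matrix protein induced by TGF-beta, was 1.68 to 1.86 in LA and 2.16 to 2.32 in RA, and 1.12 to 1.23 in LV and 1.36 to 1.57 in RV. In none of these 4 genes did the arrays of a pair overlap, as in 9.57% of all tested genes for the atria and 17.7% for the ventricles. Ventricular calls were lost without LV replicate 2 or RV replicates 2 and 4, at adjusted p of 0.0537 to 0.0775 for *Vit*, without LV replicates 2 and 3 or RV replicate 2, at adjusted p of 0.061 to 0.0637 for *Qpct* and without any 1 array other than LA replicates 1, 2 and 4 or RA replicates 1 and 3, at adjusted p of 0.0505 to 0.114 for *Tgfbi*.

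Of the 134 genes that passed the interaction alone, 84 leaned to LA and to RV, with medians of 0.19 for LA minus RA and -0.24 for LV minus RV, and 50 leaned to RA and to LV, with medians of -0.13 and 0.19. *Acadl*, a long-chain acyl-CoA dehydrogenase of fatty acid oxidation, had 2.24, 2.25, 2.24 and 2.06 in LA and 2.04, 2.11, 1.90 and 1.96 in RA. It had 2.40, 2.62 and 2.71 in LV and 2.86, 2.76, 2.75 and 2.87 in RV (interaction 0.43 ± 0.103, adjusted p = 0.0232), and the call was lost without LV replicate 1 or RV replicate 4, at adjusted p of 0.0526 to 0.0534, and without LV replicate 1 and RV replicates 2 and 3 together (adjusted p = 0.0583). The call was also lost with the replicate numbers as a fixed block in the fit. *Acadl* was the 1 call of 14 tested genes of fatty acid oxidation.

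Of 14 tested atrial muscle genes 1, *Hey1*, was called, with medians of -0.07 for LA minus RA and -0.01 for LV minus RV, and of 11 ventricular muscle genes 1, *Irx3*, with medians of 0.01 and 0.13. Over all tested genes 4.72% were called between the atria and 3.38% between the ventricles, and 6.27% passed the interaction. The conduction list had 2 calls of 7, *Scn10a* and *Irx3*, and the glycolysis list 1 of 16, *Pfkp*. No gene passed in limma among 15 of oxidative phosphorylation (medians 0.04 and 0.14), 10 of fibroblasts and matrix (-0.07 and -0.18), 4 of adipocytes (0.19 and -0.15), 10 immediate early genes (0.14 and 0.07), 6 heat shock genes (0.12 and 0.05), 12 circadian clock genes (-0.01 and 0.0), 1 Schwann cell gene or 3 genes of the sex check. Some of these counts changed without LV replicate 3: of the 232 tested members of all lists, 15 then gained a call in 1 or more contrasts and 5 lost one. Among the muscle genes, *Scn4b*, a beta subunit of the sodium channel, had 0.90, 0.68, 0.91 and 0.93 in LA and 0.13, -0.32, -0.14 and -0.03 in RA, and was called without that array for LA minus RA (0.94, adjusted p = 9.89e-06) and for the interaction (0.83, adjusted p = 0.00402). *Gjc1*, a connexin of the conduction system, then passed the interaction (0.47, adjusted p = 0.0145). *Atp5a1*, a subunit of ATP synthase, was then lower in LV (-0.46, adjusted p = 0.0423) and passed the interaction (adjusted p = 0.00962), and *Tcf21*, a factor of fibroblasts and their progenitors, was lower in LA (-0.45, adjusted p = 0.0272). At an unadjusted p under 0.05, the 64 genes of the lists without a call, including the left-right signalling genes, gave 4 for LA minus RA, 9 for LV minus RV and 8 for the interaction. All 7374 genes gave 1204, 1485 and 1653, a larger share in each contrast. These lists were picked for having no call, so their smaller share follows in part from that choice and is a description only. All 10 lung and airway genes were at or below 0 and none was tested. *Xist* was below 0 and *Eif2s3y* above 0 on every array, as the labels' sex has it. *Kdm5d* and *Uty*, also of the sex check, were mostly below 0, at -0.41 to 0.08 and -1.21 to 0.03, and add nothing to this.

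**Figure D5:**
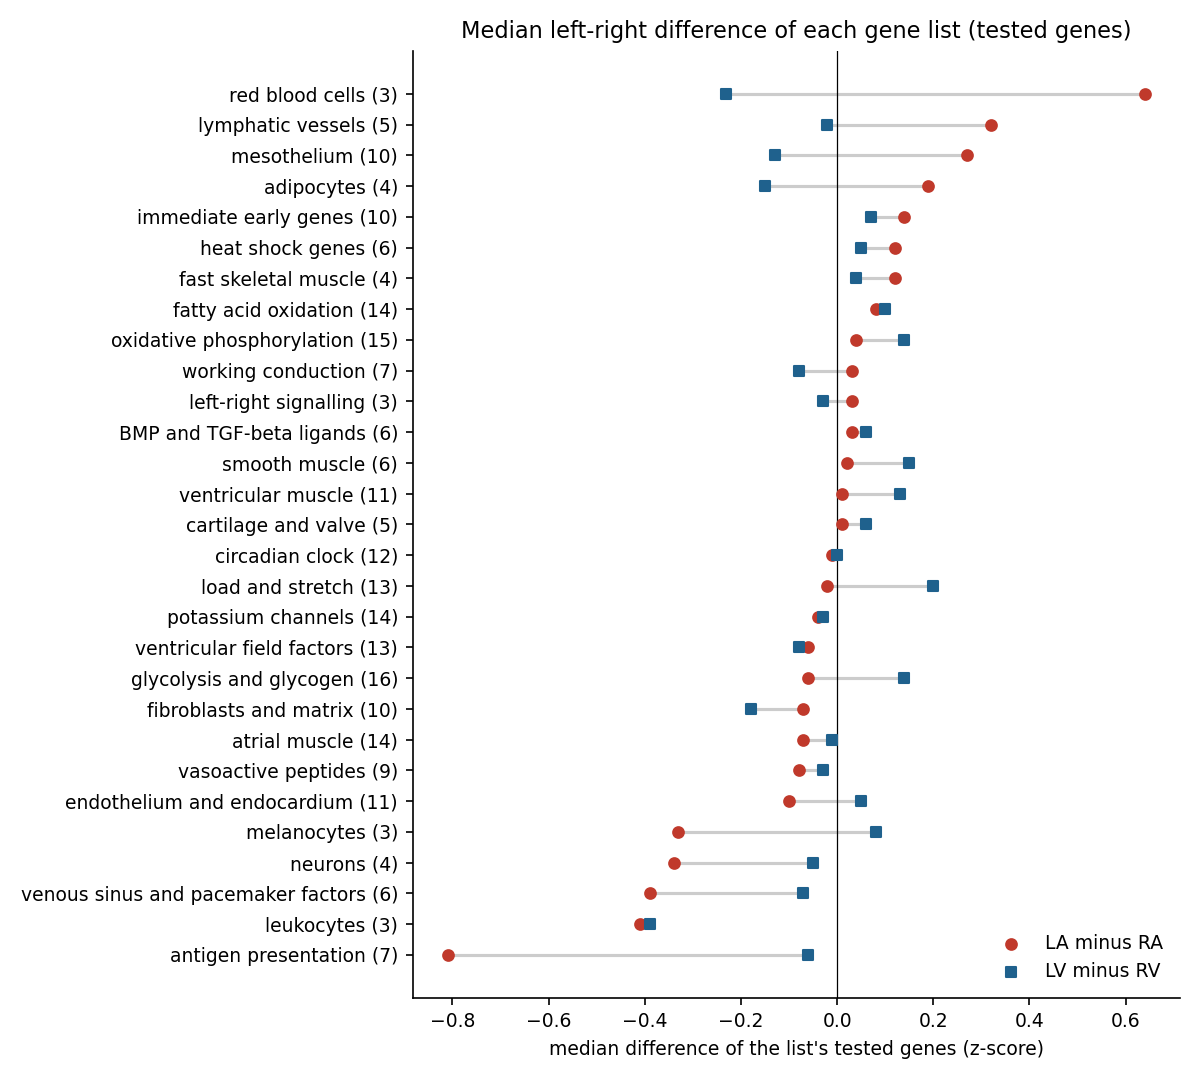
Median difference (horizontal axis, z-score) of the tested genes of each list for LA minus RA (circles) and LV minus RV (squares), with the number of tested genes in parentheses. Antigen presentation lies lowest for the atria at -0.81 and near 0 for the ventricles at -0.06; red blood cell genes lie highest for the atria at 0.64 and at -0.23 for the ventricles.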

How the data were processed

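Gene expression was measured on Illumina Mouse Ref-8 v2 bead arrays. Per the labels, the authors extracted signals with BeadStudio and GenomeStudio 2011.1, and the study's methods describe a log2 transform and an alignment of medians. The deposited values were z-scores, each array having mean 0 and SD 1 over 25697 probes, and how these scores were made from the signals is not given in the sources used here. Scaling every array to the same SD can change differences between arrays. Precision is limited by how many arrays each region has, and no slide or scan batch was given.

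Of the probes, 23978 had 1 gene symbol in the platform annotation and 1719 had none and were left out. Each of the 16593 genes was represented by the probe whose mean over the 15 arrays was highest, and 4777 genes had several probes. Other probes are given for some of the named genes only. The 7374 genes that exceeded a z-score of 0 on 1 or more arrays were tested in limma 3.58.1 (R 4.3.3), with a mean for each region, empirical Bayes moderation, two-sided tests, Benjamini-Hochberg adjustment over these genes for each contrast and a threshold of 0.05. The fit used LA 1 to 4, RA 1 to 4, LV 1 to 3 and RV 1 to 4. It was also run on simulated data with independent noise. That simulation held no array standing apart, no shared replicate effects and no atrial transcripts in ventricles, so it does not bear on these features.

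Named genes were the 8 with the largest difference in each contrast and direction (without overlap of the arrays for LA minus RA and LV minus RV), the 8 with the largest interaction in each class, up to 4 called members of each list, and *Bmp10*, *Hand1*, *Hand2*, *Tbx5*, *Tbx20*, *Isl1* and *Shox2*. One more gene of this rule is not reported here. In the class with the same side in both pairs, the smaller of the 2 differences set the order. Genes named as list members without a call, and those said to be picked after their values were seen, fall outside this rule. The members and lists were chosen with earlier results of these data known. Alternatives changed the arrays, the normalization, the filter, the probe choice, the moderation and the replicate block. Of the 15 arrays, LV replicates 1 to 3 and RV replicates 1 to 4 are named by their source label, and RV replicate 2 was kept as labelled.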

Additional observations from a re-analysis of the deposited data

Results flagged for a closer look

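Single arrays stood apart from the other 3 of their region by Dixon's test in 13 of 228 groups of 4 arrays over the 76 named genes, where chance gives about 1 in 20. In LA, *Tnni2* was 1.40 in replicate 4, the others being 1.70 to 1.74. In LA, *Cxcl13* was 0.15 in replicate 3, the others being -0.71 to -0.62. In LA, *Pvalb* was -0.70 in replicate 3, the others being -0.54 each. In RV, *Pvalb* was -0.67 in replicate 1, the others being -0.61 to -0.60. In RA, *Angpt1* was 1.91 in replicate 2, the others being 1.73 to 1.74. In RV, *Ccl11* was 0.63 in replicate 3, the others being 0.93 to 0.99. In LA, *Fblim1* was 1.86 in replicate 2, the others being 1.91 to 1.92. In RA, *Cacna1g* was 0.13 in replicate 2, the others being 0.01 to 0.03. In LA, *Kcnj2* was -0.11 in replicate 2, the others being 0.29 to 0.34. In LA, *Acadl* was 2.06 in replicate 4, the others being 2.24 to 2.25. In RV, *Cdh5* was 0.73 in replicate 3, the others being 0.59 to 0.61. In LA, *Lyz2* was 2.53 in replicate 3, the others being 2.03 to 2.10. In RV, *Cd74* was 1.43 in replicate 1, the others being 1.96 to 2.06. LA replicate 3 held 3 of them, and LA replicates 2 and 4, RA replicate 2 and RV replicates 1 and 3 held 2 each. LV, with 3 arrays, could not be examined this way.

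The left-right difference itself differed between atria and ventricles, by the interaction test in limma, for 462 genes, of which 50 are named here. Among genes called between the atria alone, the interactions above 0 were 1.68 for *Scara5*, 1.48 for *Tnni2*, 1.34 for *Ddit4l*, 1.22 for *Timp4*, 1.21 for *Ccl8*, 1.20 for *Aldh3a1*, 1.04 for *Ppp1r1b*, 1.03 for *Ccl21a*, 0.87 for *Chrd*, 0.78 for *Uts2b* and 0.50 for *Atp2a1*. Among genes called between the atria alone, the interactions below 0 were -2.47 for *Cd207*, -2.47 for *Bmp10*, -2.02 for *Pvalb*, -1.98 for *Hamp*, -1.75 for *Cxcl13*, -1.38 for *Vsig4*, -1.11 for *Dbh*, -1.08 for *Adm*, -1.01 for *Dct*, -0.85 for *Shox2*, -0.82 for *H2-Eb1*, -0.62 for *Hey1* and -0.32 for *Cacna1g*. Among genes called between the ventricles alone, the interactions above 0 were 1.33 for *Retnla*, 0.90 for *Angpt1*, 0.86 for *Sdhd*, 0.78 for *Scn10a*, 0.73 for *Wif1*, 0.73 for *Sort1*, 0.64 for *Kcnj2* and 0.58 for *Kcnd2*. Among genes called between the ventricles alone, the interactions below 0 were -1.99 for *Nppb*, -1.02 for *Ankrd23*, -0.98 for *Mybpc2*, -0.81 for *Mybpc3*, -0.51 for *Kcne1* and -0.45 for *Cdh5*. Among genes called in both pairs with opposite sides, the interactions above 0 were 1.56 for *Ccl11*, 1.28 for *Clec10a*, 1.13 for *Hbb-bt*, 0.88 for *Drd2*, 0.77 for *Gpm6a* and 0.69 for *Serpinb6b*. Among genes called in both pairs with opposite sides, the interactions below 0 were -1.89 for *Nrn1*, -1.88 for *Ptgds* and -0.55 for *Pfkp*. Among genes called in both pairs with the same side, the interactions above 0 were 0.50 for *Aqp4*. Among genes called in both pairs with the same side, the interactions below 0 were -0.91 for *Arpp21*. Among genes called in neither pair, the interactions above 0 were 0.43 for *Acadl*. Values above 0 stand for a higher left-minus-right difference in the atria than in the ventricles.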

How the results depend on the processing

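With LV replicate 4 included, the calls fell to 17 for the interaction, 28 for LA minus RA and 2 for LV minus RV, and 17 genes of the atria alone with the interaction, 0 of the ventricles alone with it, 0 with the same side and 0 with opposite sides in both pairs were left. LV minus RV then changed sign for *Mybpc3* (-0.28, interaction 0.12), *Fblim1* (-0.43), *Kcnk3* (-0.098) and *Pfkp* (-0.16); the array is the one with correlations of -0.06 to 0.01 over all probes. No other alternative changed the sign of a called value of a named gene. Without LV replicate 3, LV minus RV had 164 calls, 117 of them among the 249, against 419 for LA minus RA and 462 for the interaction. Separate fits for atria and ventricles gave 294 calls for LA minus RA and 20 for LV minus RV, with 2 genes of the same and 1 of opposite sides. Quantile normalization gave 444, 341 and 647 calls for LA minus RA, LV minus RV and the interaction, 14 genes with the same side, and 194 higher and 147 lower calls for LV minus RV, where the values as deposited gave 112 and 137; for the interaction they were 310 and 337, against 256 and 206 as deposited. Array weights gave 438, 303 and 563 calls and 13 genes with the same side, and no filter gave 11 with opposite sides. Setting the values of LV replicate 3 below those of all other arrays to missing, chosen after seeing the data, gave 390, 281 and 539 calls. Leaving out LV replicate 1 and RV replicates 2 and 3, also chosen after seeing the data, gave 275, 65 and 328 calls, with 48 genes of the ventricles alone with the interaction, 2 with the same and 6 with opposite sides. The cause of these shifts was not tested.

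Leaving out each array in turn gave 252 to 419 calls for LA minus RA, 72 to 280 for LV minus RV and 288 to 574 for the interaction, with 136 to 190 genes of the atria alone with the interaction, 52 to 149 of the ventricles alone with it, 4 to 12 with the same and 5 to 25 with opposite sides. Of the named calls, 46 of 54 for LA minus RA, 17 of 36 for LV minus RV and 45 of 50 for the interaction passed without any 1 array.

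LA and RA share replicate numbers in the labels, as do LV and RV. Deviations of same-numbered arrays from their region means correlated at -0.263, 0.24, 0.408 and 0.423 for LA and RA and at 0.214, 0.179 and 0.0145 for LV and RV. LA replicates 2, 3 and 4 and LV replicates 1 and 2 correlated best with the same number. LA replicate 1 correlated best with RA replicate 2 (0.242), and LV replicate 3 with RV replicate 4 (0.0218). The titles of LV and RV replicates 1, 2 and 3 also share the numbers 2, 7 and 8. The labels do not say whether same-numbered arrays came from the same animals, so pairing stayed undecided. The main fit, with 249 calls for LV minus RV, did not pair the arrays. With a fixed replicate block there were 443, 44 and 371 calls for LA minus RA, LV minus RV and the interaction, with 30 genes of the ventricles alone with the interaction, 5 of the same and 7 of opposite sides, and 18 of the 36 named ventricular calls did not pass. With a random replicate block (correlation 0.1) there were 439, 335 and 587 calls, 14 genes with the same and 28 with opposite sides.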
